A study of Mus musculus with 8 samples.

Results

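Transcripts of 40 chaperones and unfolded protein response genes were followed in whole hearts of 8-week-old male mice. The genes were listed by symbol for their known roles, with no measured value in the rule, and were found as 40 of the 45706 gene rows of the count table. They comprise 21 genes of the endoplasmic reticulum, 3 mitochondrial chaperones and 16 genes of the cytosolic heat shock system. The knockout hearts (cKO, n = 4) had the genotype Elmsan1 fl/fl;aMHC-Cre+/-. The floxed control hearts (n = 2) were Elmsan1 fl/fl without the transgene, and the Cre control hearts (n = 2) were labelled aMHC-Cre+/-, with no floxed allele named. The aMHC (Myh6) promoter is active in cardiomyocytes, so the other cells of the heart keep the gene. Elmsan1 encodes a scaffold of the mitotic deacetylase complex, a histone deacetylase complex.

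Chaperones bind unfolded chains and let them fold. In the endoplasmic reticulum, Hspa5 (BiP) and its co-chaperones hold secreted and membrane proteins, disulfide isomerases form their cross-links, and the lectin Canx retains glycoproteins until they are folded. When unfolded protein builds up there, the membrane sensors Atf6 and Ern1 (IRE1α) raise the transcription of these genes, Ern1 by splicing the Xbp1 transcript. Heat shock factor 1 (Hsf1) does the same for the cytosolic Hsp70, Hsp90 and small heat shock proteins. Cardiomyocytes are rich in small heat shock proteins, some of which protect the contractile filaments.

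The target sequence of the reticulum arm is shown first because it is the site at which Atf6 and Xbp1 are known to act. The endoplasmic reticulum stress element (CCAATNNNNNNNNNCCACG, with any 9 bases in the middle) was searched on both strands of the 300 bases from 250 before to 50 after each RefSeq start (GRCm38.p6). Windows were found for 32 of the 40 members, 39 windows in all, and none is shown for Hyou1, Manf, Atf6, Hspa9, Hspa8, Hsp90aa1, Hsp90ab1 and Hsf1. The element was present in the windows of 7 of the 32 members (21.9%; 17.9% of the members' windows), against 0.119% of all 32851 windows. The matches are printed in the direction of the element, with its fixed letters in capitals.
Hspa5: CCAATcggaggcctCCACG
Hsp90b1, first match: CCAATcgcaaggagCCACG
Hsp90b1, second match: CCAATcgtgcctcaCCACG
Dnajc3: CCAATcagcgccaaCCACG
Pdia6: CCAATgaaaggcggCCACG
Canx: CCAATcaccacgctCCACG
Creld2: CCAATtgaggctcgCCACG
Syvn1: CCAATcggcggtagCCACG
The second form of the element (ATTGG and CCACG with 1 base between them), found in 0.0365% of all windows, was present in those of Dnajb11 and Herpud1.
Dnajb11: ATTGGcCCACG
Herpud1: ATTGGgCCACG
Of these 9 members, 5 were lower in cKO by the test described below (Hspa5, Hsp90b1, Dnajc3, Pdia6 and Canx) and 4 were not called (Creld2, Syvn1, Dnajb11 and Herpud1). The share lower by that test was 52.5% over all 40 members and 26.5% over all genes tested. A relation of the element to the calls was not tested. Members with the same letters in the window were thus found on both sides of the threshold. The letters TGACGTGG, another site of the pathway, were in none of the members' windows and in 0.676% of all windows.

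The window of Hspa5 (chr2:34771840-34772139, plus strand) is printed whole because Hspa5 is the standard readout of the pathway. Its element lies 65 to 47 bases before the start and is in capitals.
Hspa5 window: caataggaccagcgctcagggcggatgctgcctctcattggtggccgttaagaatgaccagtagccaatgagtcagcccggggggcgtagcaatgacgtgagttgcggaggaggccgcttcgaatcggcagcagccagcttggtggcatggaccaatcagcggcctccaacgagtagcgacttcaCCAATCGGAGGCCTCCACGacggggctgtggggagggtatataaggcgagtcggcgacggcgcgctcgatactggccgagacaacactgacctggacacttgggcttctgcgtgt
The heat shock element was searched as GAANNTTCNNGAA on either strand, which also covers its reverse complement. It was found in 0.603% of all windows and in those of Hspd1, Hspe1 and Hsph1. Elements that depart from these letters or gaps were not searched, so a window without a match may still hold one. Hspd1 and Hspe1 are transcribed away from each other from a shared promoter, and 285 of the 300 bases of the Hspe1 window (chr1:55087898-55088197, plus strand) also lie in a window of Hspd1. The window is printed because the shared promoter serves a pair of transcripts whose values differed, as given with the mitochondrial chaperones. Overlapping matches, in capitals, lie 89 to 72 bases before the Hspe1 start.
Hspe1 window: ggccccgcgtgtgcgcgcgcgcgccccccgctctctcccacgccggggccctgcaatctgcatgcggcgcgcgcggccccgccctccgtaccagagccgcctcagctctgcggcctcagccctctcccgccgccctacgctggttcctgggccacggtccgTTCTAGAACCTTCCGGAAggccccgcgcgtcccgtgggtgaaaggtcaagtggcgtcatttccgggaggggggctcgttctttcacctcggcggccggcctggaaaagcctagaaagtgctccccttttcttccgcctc
A match describes the letters and does not show that a factor binds there.

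Elmsan1 itself (chromosome 12, 84149176 to 84218881, minus strand, GRCm38) was measured at 15.2, 15.5, 15.3 and 12 CPM in cKO replicates 1 to 4. It was at 27.6 and 25.6 CPM in the floxed hearts and at 28.6 and 25.3 CPM in the Cre hearts. CPM is a library-scaled count, in which each count is scaled by the TMM-adjusted size of its library. All cKO hearts lay below all controls (log2 fold change -0.89, SE 0.11; Benjamini-Hochberg adjusted p = 8.94e-05 by the quasi-likelihood test of edgeR, as for all adjusted p values that follow). The value covers the whole gene in all cells of the heart, and the sources used here do not name the deleted exons. Libraries held 17509564 to 25833259 estimated counts, and every member had at least 74 counts in every library.

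Of the 40 members, 21 were lower in cKO than in controls, 1 was higher and 18 did not pass the test. Each control group had the same weight in this comparison, and a gene was called at an adjusted p under 0.05 over all 15289 genes tested. Among all genes tested, 26.5% were called lower and 25.6% higher, so calls were frequent in both directions. The share of members called lower was 52.5% and the share called higher 2.5%, for genes listed when earlier results of these data were known. The median log2 fold change was -0.42 over the members (range -1.79 to 0.52) and 0.04 over all genes tested. In single hearts the median of the members, set against their control means, was -0.30, -0.33, -0.52 and -0.56 in cKO replicates 1 to 4. Summed over all members, cKO hearts held 6981 ± 586 CPM and control hearts 8929 ± 764 CPM (SD, n = 4 each). All cKO values lay below all control values for 18 members and above for 1 (Hspb1), against 25.9% and 23.4% of all genes tested.

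**Figure D1:**
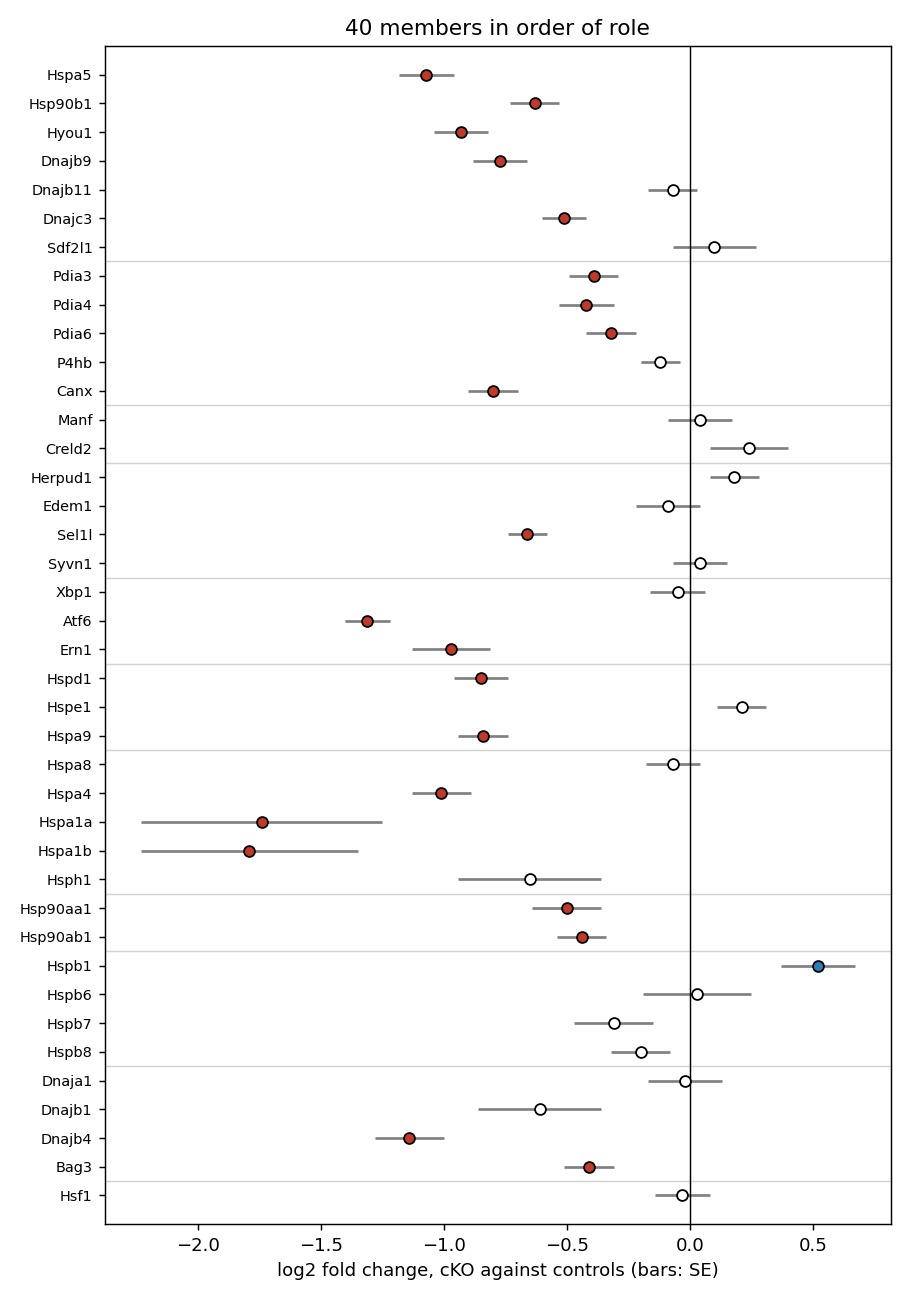
Log2 fold changes of the 40 members in cKO against controls (horizontal axis, bars are SE), with lines between the roles. Red points were called lower, the blue point higher and white points did not pass an adjusted p of 0.05. The points lie between -1.79 (Hspa1b) and 0.52 (Hspb1).

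The Hsp70 and Hsp90 chaperones of the reticulum and their co-chaperones fell together in part, 5 of 7 being lower and none higher. Of all genes tested, 26.5% were lower and 25.6% higher. Hspa5 (BiP), the main Hsp70 of the reticulum, was measured at 244, 186, 190 and 208 CPM in cKO, 456 and 402 CPM in the floxed and 414 and 461 CPM in the Cre hearts. No cKO heart reached the lowest control, a 2.09-fold difference (log2 fold change -1.07, SE 0.11, adjusted p = 3.73e-05). Hyou1, which exchanges the nucleotide of Hspa5, was measured at 25.5, 19.1, 18.6 and 23.3 CPM in cKO, 39.5 and 39.7 in the floxed and 42.8 and 43.1 in the Cre hearts. The groups were likewise apart (log2 fold change -0.93, SE 0.11, adjusted p = 7.48e-05). Dnajb9 (ERdj4), a J protein that directs Hspa5 to its clients and to Ern1, stood at 26.7, 18.9, 21.5 and 22.1 CPM in cKO against 38.7 and 43 in the floxed and 34.4 and 36.7 in the Cre hearts. Its values did not overlap either (log2 fold change -0.77, SE 0.11, adjusted p = 0.000208). Hsp90b1 (GRP94), the Hsp90 of the reticulum, ranged from 177 to 192 CPM in cKO and from 245 to 348 CPM in controls (log2 fold change -0.63, adjusted p = 0.000429). Dnajc3 (p58IPK), a J protein that also restrains the kinases of eIF2α, ranged from 30.5 to 39.5 CPM in cKO and from 47 to 52.3 CPM in controls (log2 fold change -0.51, adjusted p = 0.001). Dnajb11 (ERdj3) at 39.8 ± 3.83 against 41.8 ± 3.3 CPM, and its partner Sdf2l1 at 5.93 ± 0.933 against 5.53 ± 0.934 CPM, had overlapping groups (adjusted p = 0.588 and 0.627; SD, n = 4 each). Summed over the 7 genes, cKO hearts held 514.2 ± 42 CPM and control hearts 894.1 ± 74.8 CPM (SD, n = 4 each).

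Among the enzymes and the lectin of glycoprotein folding, 4 of 5 were lower and none higher (background 26.5% and 25.6% of all genes tested). Canx (calnexin) stood at 152, 119, 126 and 136 CPM in cKO against 241 and 219 CPM in the floxed and 232 and 235 CPM in the Cre hearts. The highest cKO heart lay well under the lowest control (log2 fold change -0.80, SE 0.10, adjusted p = 8.77e-05). Pdia3 (ERp57), the disulfide isomerase that works with calnexin, was measured at 92.7, 77.4, 76.3 and 94 CPM in cKO, 105 and 111 in the floxed and 112 and 119 in the Cre hearts. The groups were apart by a smaller distance (log2 fold change -0.39, SE 0.10, adjusted p = 0.00603). The isomerase Pdia4 (ERp72) stood at 19.4, 17.4, 14.6 and 20 CPM in cKO, 23.3 and 22.3 in the floxed and 25.7 and 24.4 in the Cre hearts (log2 fold change -0.42, SE 0.11, adjusted p = 0.00814). With libraries scaled by their size alone, the calls of Pdia3 (-0.26, adjusted p = 0.0829) and Pdia4 (-0.30, adjusted p = 0.0727) were lost. Pdia6 (P5) ranged from 58.7 to 75.9 CPM in cKO and from 78.3 to 85 CPM in controls (log2 fold change -0.32, adjusted p = 0.0151). That call was lost without cKO replicate 3 (adjusted p = 0.0527) and without floxed replicate 1 (adjusted p = 0.0522). P4hb, the most abundant isomerase here per length of transcript, stood at 180.4 ± 5.25 CPM in cKO hearts and at 196.6 ± 20.5 CPM in control hearts, with overlapping groups (adjusted p = 0.256).

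Both membrane sensors among the members were lower (background 26.5% of all genes tested), and Xbp1 did not pass the test. A further sensor outside the members, Eif2ak3 (PERK), was not called (log2 fold change -0.33, adjusted p = 0.0613). It was named after its values were seen. Atf6, which is cut in the Golgi to release a transcription factor, was measured at 51, 41.1, 45.9 and 43.7 CPM in cKO against 103 and 109 CPM in the floxed and 113 and 125 CPM in the Cre hearts. Every cKO value was under the lowest control by more than the spread within either group, a 2.48-fold difference (log2 fold change -1.31, SE 0.09, adjusted p = 1.34e-05). Ern1 stood at 11.6, 10.7, 9.08 and 6.47 CPM in cKO, 18.4 and 18.9 in the floxed and 18.7 and 17.7 in the Cre hearts. The controls lay close together and the cKO hearts spread below them (log2 fold change -0.97, SE 0.16, adjusted p = 0.000502). Xbp1, the transcript that Ern1 splices, was at 40.1, 48.7, 40.5 and 53.5 CPM in cKO, 46.4 and 48.8 in the floxed and 49.2 and 45.3 in the Cre hearts. These groups overlapped (log2 fold change -0.05, SE 0.11, adjusted p = 0.702), and gene counts do not separate its spliced form. Atf6 and Ern1 have the longest transcripts of all members (7246 and 6946 bases). In a fit with an offset for length and GC content of the transcript their log2 fold changes were -0.87 and -0.66, and that of Xbp1 was -0.27 (adjusted p = 0.0406), all 3 called.

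In the branch that returns misfolded proteins to the cytosol for degradation, 1 of 4 members was lower (25%, near the 26.5% of all genes tested). Sel1l, the adaptor of the ubiquitin ligase Syvn1 (Hrd1), stood at 46.8, 46.5, 45.2 and 43.3 CPM in cKO, 75.5 and 72.2 in the floxed and 65.9 and 74.3 in the Cre hearts. The cKO hearts lay within a few CPM of each other and lay under all controls (log2 fold change -0.66, SE 0.08, adjusted p = 7.65e-05), and the log2 fold change with the length and GC offset was -0.30. Syvn1 was at 21.95 ± 2.83 CPM with the deletion and 21.3 ± 0.323 CPM in controls (SD, n = 4 each; adjusted p = 0.761). The groups of Edem1, a lectin that hands over trimmed glycoproteins, and Herpud1, a membrane scaffold of the ligase, also overlapped (adjusted p = 0.593 and 0.178). Herpud1 was at 170 ± 18.1 against 151.5 ± 22.8 CPM, and with upper-quartile scaling or library size alone it was called higher. Its floxed hearts were at 168.8 ± 1.37 CPM and its Cre hearts at 134.2 ± 19.1 CPM (SD, n = 2 each). The log2 fold change of Herpud1 was 0.01 against floxed and 0.34 against Cre, neither called. The secreted proteins Manf (28.8 ± 5.79 against 28.1 ± 1.3 CPM) and Creld2 (10.3 ± 2.26 against 8.77 ± 0.61 CPM), both markers of reticulum stress, did not pass the test. In cKO replicate 4 both were at their highest, 36.9 and 13.1 CPM.

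**Figure D2:**
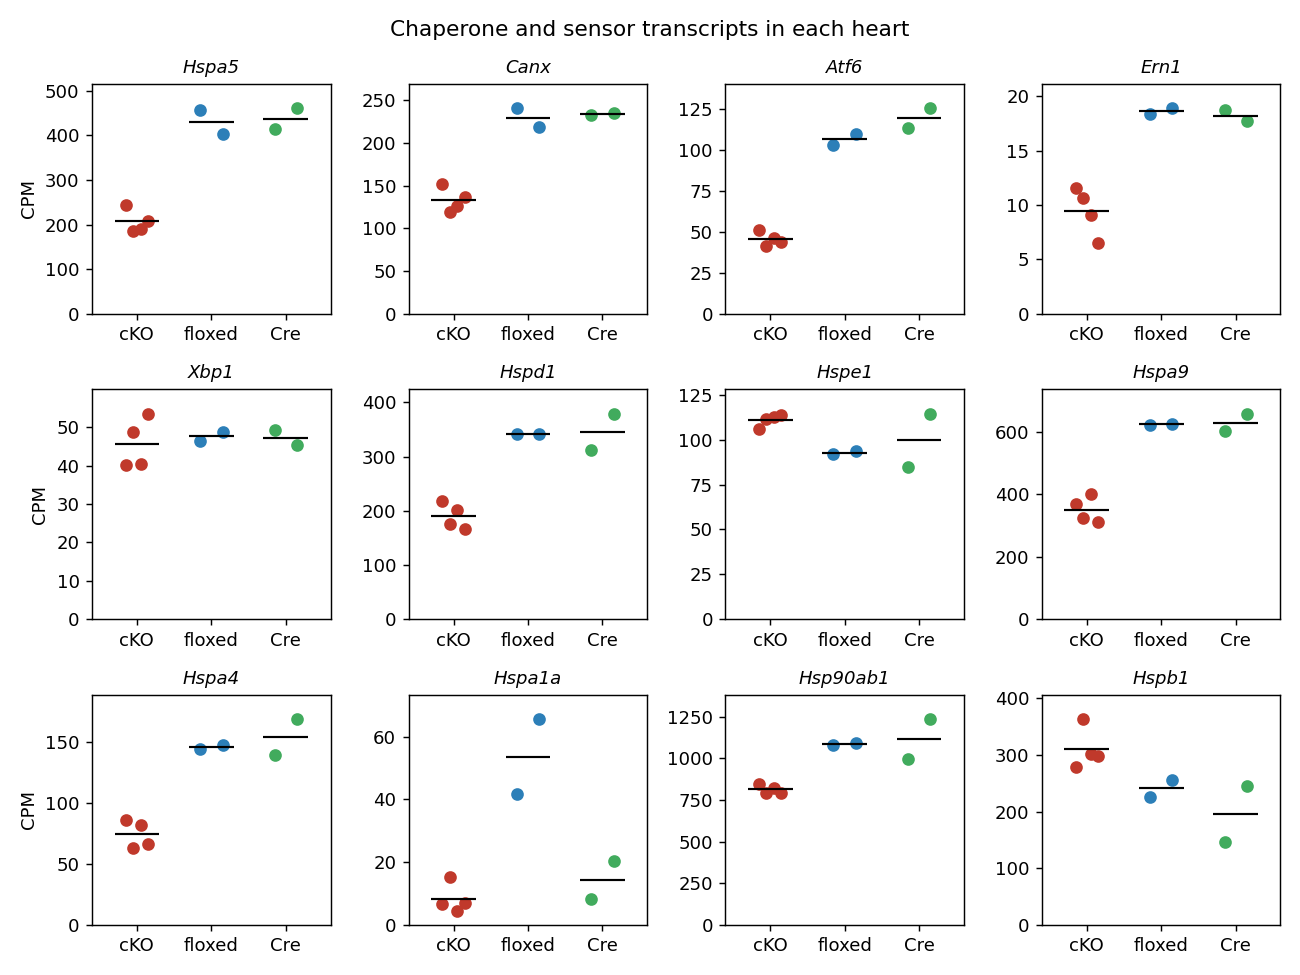
CPM (vertical axes, from 0) of 12 members in each heart by group, with 1 point a heart and a line at the group mean. Points of cKO lie below all controls for Hspa5, Canx, Atf6, Ern1, Hspd1, Hspa9, Hspa4 and Hsp90ab1, overlap them for Xbp1, Hspe1 and Hspa1a, and lie above them for Hspb1.

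The mitochondrial chaperonin and its lid did not move together. Hspd1 (Hsp60), which forms the folding chamber, was measured at 219, 176, 202 and 167 CPM in cKO against 342 and 342 CPM in the floxed and 312 and 379 CPM in the Cre hearts. The groups were far apart (log2 fold change -0.85, SE 0.11, adjusted p = 0.000124). Hspe1 (Hsp10), which closes the chamber, stood at 106, 111, 112 and 114 CPM in cKO, 91.8 and 93.7 in the floxed and 84.9 and 114 in the Cre hearts. The cKO hearts lay above the floxed pair and within the range of the Cre pair (log2 fold change 0.21, SE 0.10, adjusted p = 0.106). Without Cre replicate 2 the log2 fold change of Hspe1 was 0.30 and was called (adjusted p = 0.0257), and with the offset it was -0.08. The difference between these genes was not tested in itself. Their exons overlap by 112 bases on opposite strands, where unstranded reads cannot be told apart. Hspa9 (mortalin), the Hsp70 that draws proteins into the mitochondrion, stood at 368, 325, 402 and 310 CPM in cKO, 624 and 627 in the floxed and 602 and 659 in the Cre hearts. Its highest cKO value was well under its lowest control (log2 fold change -0.84, SE 0.10, adjusted p = 9.32e-05).

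Of the 5 cytosolic Hsp70 and Hsp110 genes, 3 were lower and none higher (background 26.5% and 25.6% of all genes tested). Against floxed alone 3 were lower, and against Cre alone 2. Hspa8 (Hsc70), which folds new chains under normal conditions, was at 1006, 1144, 954 and 1006 CPM in cKO, 1023 and 1138 in the floxed and 951 and 1193 in the Cre hearts. The groups overlapped throughout (log2 fold change -0.07, SE 0.11, adjusted p = 0.621). Hspa4 (APG-2), an Hsp110-type exchange factor that serves Hspa8, was measured at 86, 63.1, 81.5 and 65.7 CPM in cKO against 144 and 147 CPM in the floxed and 139 and 168 CPM in the Cre hearts. It fell 2.02-fold, with no overlap (log2 fold change -1.01, SE 0.12, adjusted p = 7.1e-05). Hsph1 (Hsp105), of the same type, stood at 27.6, 32, 27.3 and 20.5 CPM in cKO, 30.3 and 34.9 in the floxed and 30.2 and 78.2 in the Cre hearts. Cre replicate 2 lay apart from every other heart, and the test was not passed (log2 fold change -0.65, adjusted p = 0.0986). Leaving that heart out gave -0.25 (adjusted p = 0.208) and leaving out Cre replicate 1 gave -0.92 (adjusted p = 0.000917).

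The stress-inducible Hsp70 genes Hspa1a and Hspa1b had the largest falls and the largest spread. Hspa1a was measured at 6.63, 15.3, 4.24 and 6.97 CPM in cKO, 41.8 and 65.6 in the floxed and 8.13 and 20.3 in the Cre hearts. Hspa1b stood at 5.31, 12, 3.17 and 5.79 CPM in cKO, 34.6 and 56.1 in the floxed and 8.09 and 14.6 in the Cre hearts. In both, the floxed pair lay above the other 6 hearts and cKO replicate 2 lay above Cre replicate 1. Against the mean of the controls the log2 fold changes were -1.74 (SE 0.49, adjusted p = 0.0253) and -1.79 (SE 0.44, adjusted p = 0.0126). The call of Hspa1a was lost without cKO replicate 1, cKO replicate 4, floxed replicate 2 or Cre replicate 2 (adjusted p from 0.063 to 0.0864), and that of Hspa1b without cKO replicate 4 (adjusted p = 0.0571). These genes are neighbours on chromosome 17, and 58.8% of the 50-base words of the Hspa1a transcript also occur in that of Hspa1b, so the split of reads between them is uncertain. Their summed counts, which do not depend on the split, were 227, 553, 173 and 335 in cKO hearts. The sums were 1783 and 2477 in the floxed pair and 427 and 697 in the Cre pair.

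Both cytosolic Hsp90 genes were lower (background 26.5% of all genes tested). Hsp90ab1, the constitutive form, was at 845, 795, 825 and 792 CPM in cKO, 1084 and 1094 in the floxed and 995 and 1236 in the Cre hearts. The cKO hearts lay close together below all controls (log2 fold change -0.44, SE 0.10, adjusted p = 0.00291). Hsp90aa1, the inducible form, stood at 73.6, 96.1, 69.9 and 78.4 CPM in cKO, 91.6 and 112 in the floxed and 100.4 and 148 in the Cre hearts. Here cKO replicate 2 lay above floxed replicate 1 (log2 fold change -0.50, SE 0.14, adjusted p = 0.0137). The call was lost with the length and GC offset (-0.34, adjusted p = 0.0798), without floxed replicate 2 (adjusted p = 0.0513) and without Cre replicate 2 (adjusted p = 0.0501). Hsf1, the factor that drives the inducible genes, was at 19.6, 24.1, 21 and 22.6 CPM in cKO, 25.4 and 21 in the floxed and 19.4 and 23.3 in the Cre hearts. Its groups overlapped (log2 fold change -0.03, SE 0.11, adjusted p = 0.848), and a transcript level does not show the activity of the protein.

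The small heat shock proteins held the only member called higher, 1 of 4 (25%, near the 25.6% of all genes tested). Hspb1 (Hsp25 in mouse) was measured at 279.5, 363, 301 and 298 CPM in cKO, 226 and 256 in the floxed and 146 and 244 in the Cre hearts. All cKO hearts lay above all controls (log2 fold change 0.52, SE 0.15, adjusted p = 0.0157). With the length and GC offset the sign turned (log2 fold change -0.28, adjusted p = 0.165), and without floxed replicate 1 the call was lost (adjusted p = 0.0669). Hspb7, a heart and muscle form, stood at 1590, 1321, 1543 and 971 CPM in cKO, 1639 and 1884 in the floxed and 1406 and 1794 in the Cre hearts. It did not pass the test (log2 fold change -0.31, SE 0.16, adjusted p = 0.123). Hspb6 (Hsp20) at 612 ± 184 against 599.8 ± 68.4 CPM and Hspb8, the partner of Bag3, at 311 ± 44.7 against 358 ± 32.1 CPM also overlapped (adjusted p = 0.928 and 0.171). For all 3, cKO replicate 4 was the lowest heart (347 CPM for Hspb6, 971 for Hspb7 and 250.5 for Hspb8). With the offset, Hspb7 (-0.58, adjusted p = 0.0298) and Hspb8 (-0.47, adjusted p = 0.0168) were called lower.

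Of the cytosolic J proteins and Bag3, 2 of 4 were lower (background 26.5% of all genes tested). Dnajb4, a J protein that works with Hsp70, was measured at 57.8, 55, 51 and 42.4 CPM in cKO, 106 and 155 in the floxed and 91.6 and 106 in the Cre hearts. The fall was 2.20-fold, with no overlap (log2 fold change -1.14, SE 0.14, adjusted p = 8.08e-05). Bag3, which links Hsp70 and Hspb8 to autophagy at the Z disc, stood at 176, 174, 146 and 139 CPM in cKO, 233 and 231 in the floxed and 185.5 and 200.4 in the Cre hearts. The nearest hearts of the groups were close (log2 fold change -0.41, SE 0.10, adjusted p = 0.00562), and with the offset the value was -0.67. Dnajb1, the main inducible J partner of Hsp70, was at 15.8, 25.8, 19.2 and 15.3 CPM in cKO, 28.9 and 47.2 in the floxed and 16.6 and 28.1 in the Cre hearts. Its groups overlapped (log2 fold change -0.61, SE 0.25, adjusted p = 0.066). Dnaja1 was at 60.97 ± 10.9 CPM with the deletion and 61.8 ± 9.41 CPM in controls (SD, n = 4 each; adjusted p = 0.924).

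Levels of different genes can be set side by side only per length of transcript. In controls the order of the 40 members by CPM per kilobase of the longest transcript began with Hspb7 at 607, Hsp90ab1 at 437, Hspa8 at 341, Hspb6 at 303 and Hspb1 at 235. Hspa9 at 206, Hspd1 at 142 and Hspa5 at 118 CPM per kilobase were the highest members of the mitochondrion and the reticulum. The lowest members were Edem1 at 2.62 and Ern1 at 2.65. In cKO, Hspa5 and Hsp90b1 stood at 56.4 and 56.8 CPM per kilobase, where controls had 118 and 88.4. The lid gene Hspe1 at 115 CPM per kilobase stood above Hspd1 at 78.7 in cKO, and below it in controls (99.8 and 142).

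The control groups were also taken singly, since each carries only a part of the cKO genotype. Against floxed, 20 members were lower and none higher (background 23.1% and 19.8% of all genes tested). Against Cre, 18 were lower and 1 higher (background 22.8% and 19.6%). Both comparisons use the same cKO hearts. The log2 fold changes against floxed and against Cre were -1.05 and -1.08 for Hspa5, -1.23 and -1.39 for Atf6, and -0.52 and -0.75 for Hsp90b1, all called. Calls against floxed only were those of Pdia6, Hspa1a, Hspa1b, Dnajb1 and Bag3, and calls against Cre only were those of Pdia4, Hsph1, Hsp90aa1 and Hspb1. No member was called higher against floxed by edgeR with TMM scaling, DESeq2 or limma voom, and the count at an unadjusted p under 0.05 was also 0 in each.

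Whether these comparisons differ is tested by Cre against floxed, and no member was called there. The background was 0.0916% of all genes tested lower and 0.00654% higher in Cre. DESeq2 and limma voom also called 0 members. At an unadjusted p under 0.05, edgeR had 3 members lower (Herpud1, Hspa1a and Hspa1b), DESeq2 had 5 lower and 1 higher, and limma voom had 4 lower. Hspa1a had log2 fold changes of -2.70 against floxed (adjusted p = 0.00955) and -0.78 against Cre (adjusted p = 0.331), and Cre against floxed gave -1.93 (SE 0.67, adjusted p = 1). Hspa1b gave -2.79 (adjusted p = 0.00426), -0.79 (adjusted p = 0.267) and -2.01 (SE 0.59) in the same order. With 2 hearts in each control group, a difference of this size was not separated from the spread between hearts after adjustment in this fit.

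**Figure D3:**
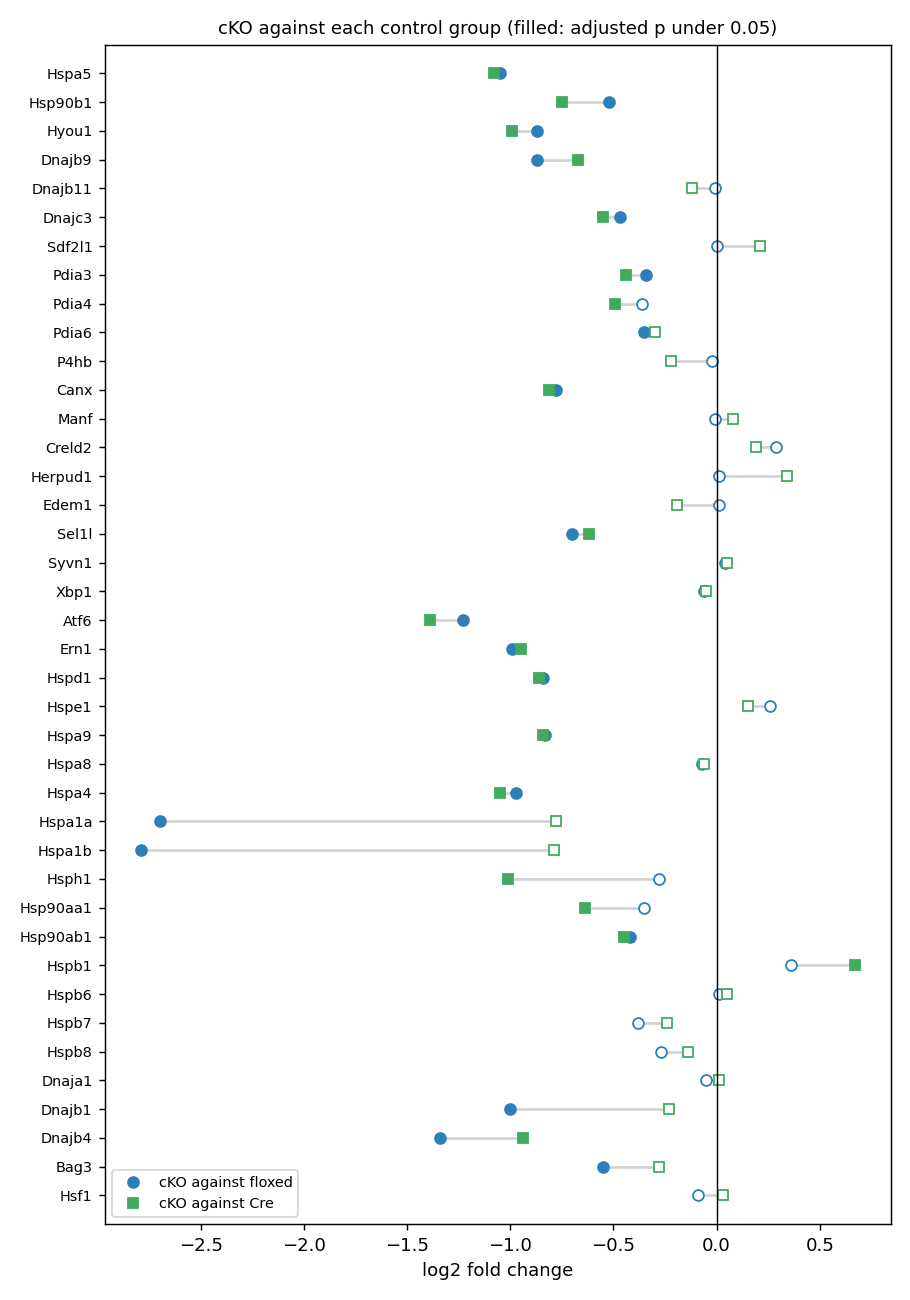
Log2 fold change of each member in cKO against floxed (blue circles) and against Cre (green squares), filled where the adjusted p was under 0.05, with a grey line joining the pair. Most pairs lie close together, and the longest lines are those of Hspa1a (-2.70 and -0.78) and Hspa1b (-2.79 and -0.79).

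The signs of the fold changes differed between the shortest and the longest members. The shortest members, Hspb1 (930 bases), Hspe1 (964), Sdf2l1 (1108) and Creld2 (1366), all had log2 fold changes above 0. The next in length had mixed signs: Hspb8 (1816 bases) -0.20, Herpud1 (1952) 0.18 and Hspb6 (1980) 0.03. The longest, Atf6 (7246), Ern1 (6946), Sel1l (6300) and Edem1 (6077), all had values below 0, as did the median of all members (-0.42). Hspe1, Sdf2l1, Creld2 and Edem1 were not called, and a relation to length over all members was not tested. With the offset for length and GC content, 25 members were lower and none higher, while 24% of all genes tested were lower and 21.3% higher. Hspa5 (-0.89), Hspa4 (-0.77), Hspd1 (-0.81), Hspa9 (-0.71), Canx (-0.57), Dnajb4 (-0.86) and Hsp90ab1 (-0.50) stayed called under it. Dnajc3 fell by 0.21 on the log2 scale with the offset and by 0.51 without it. P4hb (-0.26, adjusted p = 0.0299), Xbp1 (-0.27) and Sdf2l1 (-0.48, adjusted p = 0.0384) were called with it and not without it. Edem1 and Dnaja1 turned to 0.29 and 0.33.

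**Figure D4:**
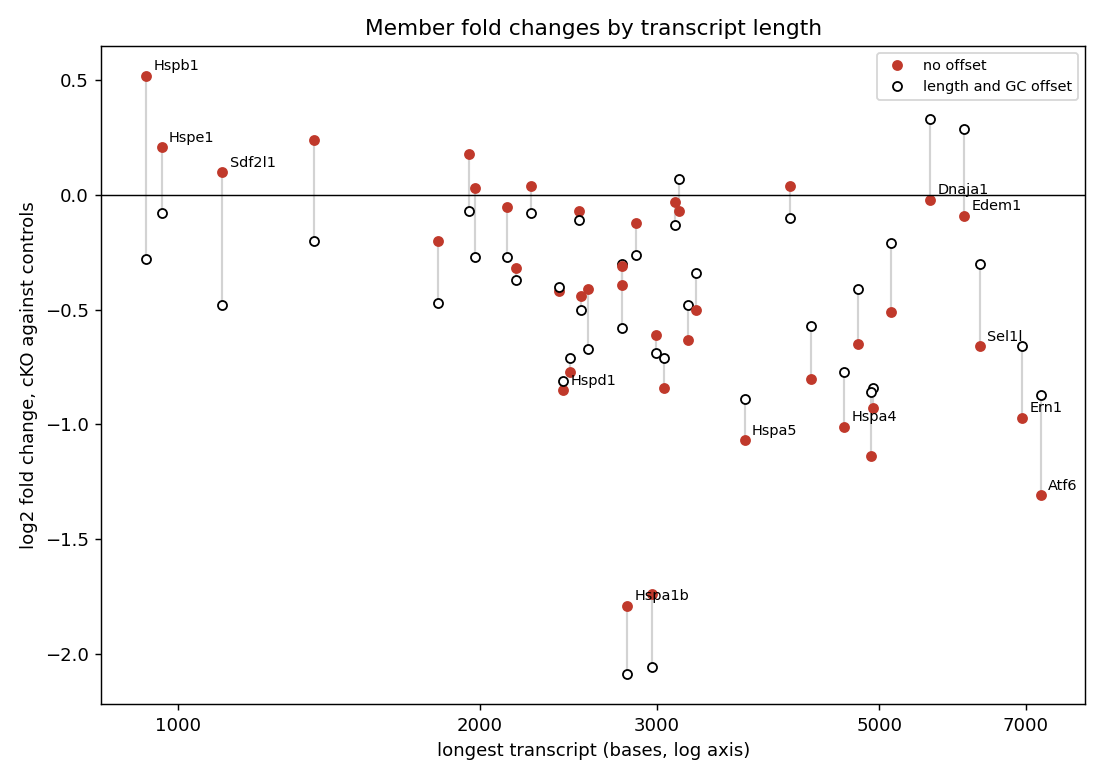
Log2 fold change in cKO against controls (vertical axis) by length of the longest transcript (horizontal log axis, bases), without an offset (red) and with the length and GC offset (white), joined for each member. The offset lowered the values of the shortest members, as for Hspb1 (0.52 to -0.28), and raised those of the longest, as for Atf6 (-1.31 to -0.87).

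Genes of the same systems outside the 40 were counted in lists chosen by role. Of 23 other reticulum folding genes, 7 were lower (30.4%) and 5 higher (21.7%), shares near the background in both directions (median log2 fold change 0.02). With the offset 2 were lower and 4 higher, where the background was 24% and 21.3%. Calr (calreticulin), the soluble relative of Canx, was lower (log2 fold change -0.28, adjusted p = 0.0298; -0.36 with the offset, also called). Against floxed alone (adjusted p = 0.0708) and against Cre alone (adjusted p = 0.0764) Calr was not called. The translocon subunit Sec61b (1.23), the proline isomerases Fkbp2 (0.87) and Ppib (0.84), and Cnpy2 (0.71) were higher, and with the offset Fkbp2 was no longer called. Of 15 other degradation genes tested, 6 were lower (40%) and 2 higher (13.3%). Among them Edem3 (-1.14) and the segregase Vcp (-0.53) were lower and Aup1 (0.68) higher, Aup1 not with the offset. Of 11 other regulators of the response, 2 were lower and 3 higher (18.2% and 27.3%), near the background of 26.5% and 25.6%. Mbtps2, the protease that releases Atf6 within the membrane, fell by 0.81 on the log2 scale. Ppp1r15a (GADD34), which lifts the block of translation, fell by 0.87, with overlapping groups. Its log2 fold change was -1.26 against floxed and -0.47 against Cre. Ddit3 (CHOP), the stress factor linked to cell death, was higher (log2 fold change 1.11, adjusted p = 0.000206; 0.82 with the offset), as was Creb3 (0.52), not with the offset.

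Mitochondrial chaperones and proteases outside the members included 10 lower (58.8%) and 3 higher (17.6%) of 17 (median log2 fold change -0.32). The background was 26.5% of all genes tested lower and 25.6% higher. With the offset, 11 of these 17 were lower and none higher. The unfoldase Clpx (-1.08), the J protein Dnaja3 (-1.07) and the membrane proteases Afg3l2 (-1.03) and Yme1l1 (-0.66) were lower. Of 14 genes of the cytosolic chaperonin and of prefoldin, its helper, 3 were lower (21.4%) and 5 higher (35.7%). The prefoldin subunits Pfdn5 (0.90), Pfdn6 (0.78), Pfdn1 (0.52) and Pfdn2 (0.42) were higher, and only Pfdn5 and Pfdn2 of these 4 with the offset. Of the other prefoldin subunits, named after their values were seen, Vbp1 was lower (-0.39, adjusted p = 0.00278; -0.49 with the offset) and Pfdn4 was not called (0.11). Of 31 other cytosolic chaperones and co-chaperones, 13 were lower (41.9%) and 5 higher (16.1%), with a median of -0.10. Smyd1, a muscle methyltransferase needed to build sarcomeres, fell by 1.02 on the log2 scale. The Hsp70 relatives Hspa4l, Hspa12a and Hspa13, the last one of microsomes, fell by 0.98, 0.94 and 0.93. Hspa12b, a relative of Hspa12a, rose (log2 fold change 1.01, adjusted p = 0.000189; 0.77 with the offset), and Hspa2 did not pass the test (0.13). Both were named after their values were seen. All 3 other small heat shock proteins, Hspb2 (0.89), Cryab (0.65) and Hspb3 (0.42), were higher, and none of them with the offset (0.06, 0.16 and -0.10). The 2 other heat shock factors did not pass the test. Over the 116 of 120 listed genes tested, 41 were lower (35.3%) and 26 higher (22.4%), with a median of -0.06.

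**Figure D5:**
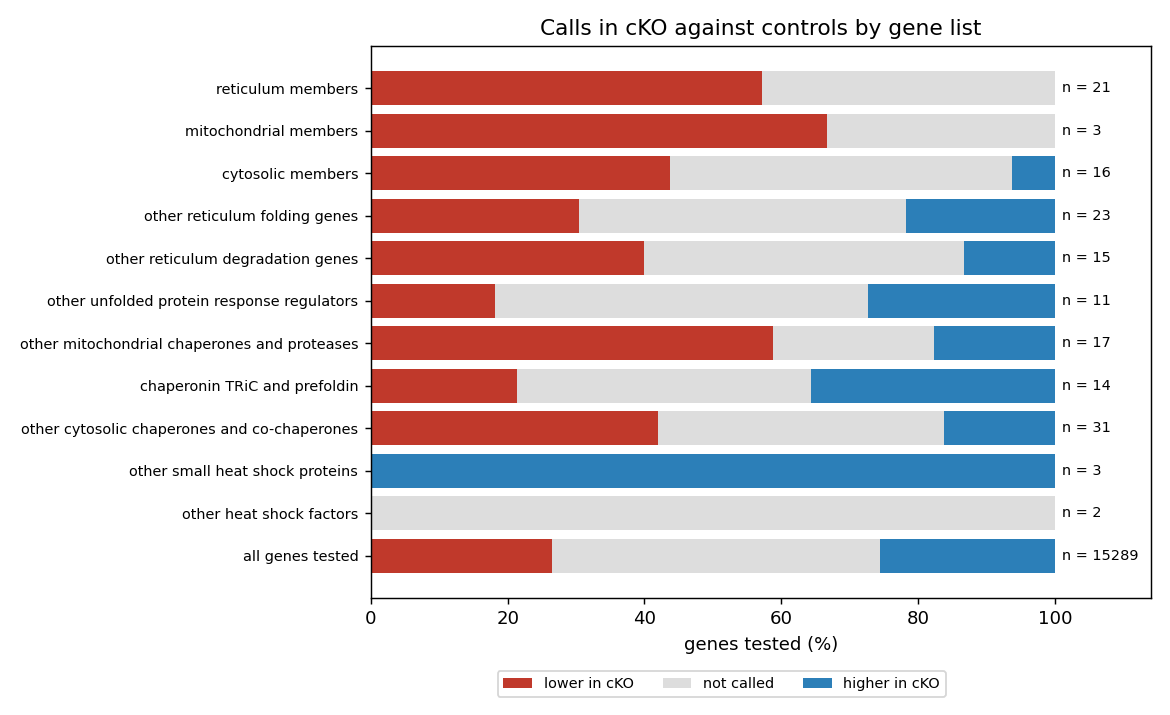
Share of genes called lower (red), not called (grey) and called higher (blue) in cKO against controls, as a percentage of the genes tested in each list (n at the right). The members of the reticulum were lower in 12 of 21 and higher in 0, those of the mitochondrion lower in 2 of 3, and the cytosolic members lower in 7 of 16 and higher in 1. Over all genes tested, 26.5% were lower and 25.6% higher.

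Whole hearts hold many cell types, and in such samples fewer cells of a type and less RNA per cell cannot be told apart. The summed level of 9 cardiomyocyte markers was 49960 to 57800 CPM in cKO and 55180 to 59460 CPM in controls, with 3 markers higher and 3 lower. The sum of 7 endothelial markers was 1430 to 2026 CPM in cKO and 917 to 1185 CPM in controls (5 higher, 1 lower). That of 6 macrophage markers was 147 to 185 against 99.5 to 122 CPM (3 higher), and that of 6 fibroblast markers 749 to 912 against 565 to 762 CPM (1 higher). The sums of cardiomyocyte, fibroblast, smooth muscle and pericyte, adipocyte and red blood cell markers overlapped between the groups. Adipocyte sums were 19.8, 20.8, 86.6 and 80.4 CPM in cKO replicates 1 to 4 and 9.25 to 28.1 CPM in controls. No marker was at 0 in all 8 libraries together. The background of these calls was 25.6% of all genes tested higher and 26.5% lower. Mitochondrially encoded transcripts made up 22.1% to 29.3% of counts in cKO and 25.5% to 29.1% in controls. The part of these shifts in the results above was not tested.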

How the data were processed

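Per the labels' protocols, TRIzol was used to isolate RNA from hearts of 8 male mice, and libraries were built with a NEBNext Ultra RNA kit. The authors deposited 1 table of expected counts per gene, in which 72% to 76.3% of a library's nonzero entries were whole within 1e-06. STAR 2.5.1b, DESeq2 and the builds mm10 and GRCm38 are named in the submitters' processing notes. The sources used here do not give the counting program, annotation or strand setting, so reads of overlapping genes may be shared. The design had been written for whole counts, so the estimates were rounded. Symbols, positions and lengths came from GENCODE M21.

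The counts were tested with edgeR 4.0.16 in R 4.3.3 by the robust quasi-likelihood test after filterByExpr and TMM scaling, with Benjamini-Hochberg adjustment over 15289 genes at 0.05. The 8 libraries shared 3 group means and 5 residual degrees of freedom. SE came from the test statistic. Levels are CPM, as mean ± SD, and p values rest on the spread between hearts listed as separate samples.

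Alternatives were other scalings, filters and fits (DESeq2 1.42.0, limma 3.58.1), pooled controls, a replicate block, fits limited to the groups compared, a length and GC offset from a smooth fit in each library (mgcv 1.9.3, 15216 genes), and leaving out each heart. The procedure was also run on simulated counts in which far fewer genes changed than were called here. That run does not test it for data with so many calls.

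Members and gene lists were chosen with earlier results of these data known. Values in every library are given for Elmsan1, for preset members and for the called members with the smallest p in each role (at most 3). Outside the members the rule named up to 4 called genes a list, with Calr, Cryab and Ddit3. A further gene that the rule names is not reported here. Genes most like Hspa5 across libraries, also in that rule, are not given, since the 8 libraries fall into separate groups. Hsph1, Dnajb1, Hsp90b1, Dnajc3 and the uncalled members are named to account for all 40. Hm13 and Hspa14 were not analysed here, and Derl3 and Hsf5 were too low to be tested. Figures were drawn with matplotlib.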

Additional observations from a re-analysis of the deposited data

How the results depend on the processing

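Of 800 values of single members under the 20 alternatives of the main comparison, 702 kept their direction and their side of the threshold. Of the 22 called members 13 kept every call, 9 lost at least 1, and Hspb1 alone among them changed sign; 10 uncalled members gained a call. The number of members lower in cKO than in controls was 18 to 25, with a member median between -0.47 and -0.29. The number higher was 3 with upper-quartile scaling, 3 with library size alone, 0 with the length and GC offset, and 0 to 2 when 1 heart was left out. Against floxed it was 2 with upper-quartile scaling and with library size alone. Against Cre it was 2 with median-ratio scaling, upper-quartile scaling, library size alone, DESeq2 and a filter at a mean of 1 CPM, 0 with the offset, and 0 to 2 when 1 heart was left out. Upper-quartile scaling and library size alone gave medians of all genes of 0.16 and 0.17 (log2) in place of 0.04, with 21.9% and 19.5% of all genes then lower and 31.9% and 31.1% higher. Elmsan1 ranged from -0.95 to -0.69 and stayed called.

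Bag3 lost its call with the replicate block (-0.27, adjusted p = 0.0843), a fit whose cKO values rest on cKO replicates 1 and 2. Pdia3, Pdia4 and Pdia6 lost theirs with library size alone, and Pdia6 also with upper-quartile scaling. Pdia3, Pdia4, Dnajc3 (-0.17) and Hsp90aa1 lost theirs with the replicate block together with the offset. Hspa1a lost its call with no filter (adjusted p = 0.0592) and with pooled controls (adjusted p = 0.053). Uncalled members that gained one were Hsph1 with DESeq2 (adjusted p = 0.016), Hspe1 and Herpud1 as higher with both scalings above, Dnaja1 as higher with the block and the offset together (0.36, adjusted p = 0.023), and Dnajb1 with DESeq2, limma voom, no robust fit, the block with and without the offset and 3 single hearts left out. The cause of these changes was not tested.

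Signs turned mostly for members near 0. With upper-quartile scaling and library size alone the log2 fold changes were 0.05 and 0.06 for Dnajb11, 0.02 and 0.03 for Edem1, 0.06 and 0.07 for Xbp1, 0.05 and 0.06 for Hspa8, 0.10 and 0.11 for Dnaja1 and 0.09 and 0.10 for Hsf1. P4hb gave 0.01 with library size alone, Hspb6 -0.02 with limma voom and Dnaja1 0.01 with the filter at a mean of 1 CPM. With the offset, and with the replicate block and the offset together, the values were -0.48 and -0.34 for Sdf2l1, -0.08 and -0.11 for Manf, -0.20 and -0.26 for Creld2, -0.07 and -0.13 for Herpud1, 0.29 and 0.14 for Edem1, and -0.10 and -0.05 for Syvn1. They were -0.08 and -0.07 for Hspe1, 0.07 and 0.14 for Hspa8, -0.28 and -0.15 for Hspb1, and 0.33 and 0.36 for Dnaja1, and the offset alone gave -0.27 for Hspb6. The replicate block alone gave -0.04 for Manf, 0.00 for Hspa8 and 0.08 for Dnaja1. Leaving out 1 heart gave ranges of -0.02 to 0.23 for Sdf2l1, -0.10 to 0.13 for Manf, -0.19 to 0.00 for Edem1, -0.01 to 0.11 for Syvn1, -0.13 to 0.01 for Xbp1, -0.12 to 0.23 for Hspb6, -0.13 to 0.07 for Dnaja1 and -0.10 to 0.04 for Hsf1.

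Hearts with the same replicate number did not deviate together over the genes tested (r from -0.11 to 0.13). In groups of 2 the deviations mirror each other, so the floxed and Cre pair gives the same r for both numbers. So few values cannot exclude that hearts share more than a number, and numbers 3 and 4 occur in cKO only. These numbers come from the sample titles, while the library names number the floxed hearts 2 and 3. In the replicate block, cKO replicates 3 and 4 each have a term of their own, so its cKO values rest on the other cKO hearts. The replicate block gave 6372 called genes in place of 7959 in the main comparison, with 22 members called in each, 21 of them shared: Bag3 was lost and Dnajb1 gained. In Cre against floxed it gave 84 in place of 15 called genes and 3 members lower, also 3 with the offset: Hspa1a (-2.02, adjusted p = 0.000358), Hspa1b (-2.02, adjusted p = 0.000156) and Dnajb1 (-0.77, adjusted p = 0.0269). With 2 hearts in each control group, differences between the controls are measured least precisely.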
